A study of Mus musculus with 18 samples.

Results

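Ethanol-fed mice at the 2 ends of hepatocyte YAP level were compared by their liver RNA: 3 libraries with YAP overexpression (OE) against 3 libraries with Yap knockout (KO), 6 of the 18 libraries of the series. All of the mice were Yap fl/fl, that is, they carried Yap alleles flanked by loxP sites. At an age of 8 weeks they received an adeno-associated virus whose TBG promoter is active in hepatocytes. In KO mice this AAV-TBG-Cre virus (5e10 genome copies per mouse) deleted Yap in hepatocytes, so that the other cells of the liver kept the gene. In OE mice an AAV-TBG-YAP-P2A-EGFP virus (2e11 genome copies per mouse) added YAP on top of the undeleted floxed alleles. The 3 ethanol-fed control libraries came from Yap fl/fl mice given AAV-TBG-GFP (2e11 genome copies per mouse) and are placed beside every gene whose levels are given. After 2 weeks the mice went onto a Lieber-DeCarli liquid diet, with 5 days to get used to it and then 4 weeks with ethanol. A last gavage of ethanol (5 g/kg, as a 33% v/v solution) was given 9 hours before death. Pair-fed libraries of the same 3 virus groups are used further below. They share the virus doses, the age at injection and the times, and no ethanol dose of a gavage is listed for them. OE and KO thus differed in virus dose, in EGFP and in Cre as well as in YAP, and between OE and KO these cannot be told apart. The control virus had the dose of OE and also carried GFP, so OE against control differed in neither of these. KO against control differed in dose, GFP and Cre. The title of the series turns on YAP, ATF6 and ER stress under alcohol, and the comparison asks what the distance from no hepatocyte YAP to added YAP did to that program and to the rest of the liver's RNA under alcohol.

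YAP is a transcriptional coactivator held out of the nucleus by the kinases of the Hippo pathway. In the nucleus it works mainly through the TEAD DNA-binding factors, and in liver it is known for control of organ size, regeneration and biliary fate. The endoplasmic reticulum (ER) of hepatocytes folds most plasma proteins, and alcohol is known to burden it. When unfolded proteins build up, the sensors ATF6, IRE1 and PERK start the unfolded protein response. ATF6 is cut free from its membrane and raises ER chaperone genes through the ER stress response element (ERSE), IRE1 splices Xbp1 RNA and raises genes of ER-associated degradation (ERAD), and PERK slows translation and raises ATF4 and CHOP (Ddit3), which drive amino acid and stress genes such as Atf3 and Trib3.

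The panel read 1 amplicon per gene, and the 6 libraries held 5.39 to 5.81 M reads. Levels are read counts scaled to a common library total (CPM) in replicates 1, 2 and 3 in that order, and differences are log2(CPM + 1) of OE minus KO ± standard error from a limma fit, a scale that understates changes near 1 CPM. Nothing in the labels says that each library is a separate mouse, so p-values measure the spread between libraries. Summed hepatocyte markers stood at 69001 to 78972 CPM in OE and 85046 to 93078 CPM in KO and 83783 to 102245 CPM in controls, so OE was the low group, and whether this had a part in any result was not tested. All 9 ethanol-fed libraries had Y-linked reads and almost no Xist. KO replicate 3 stood apart from its group: over the genes tested its Pearson r with the other KO libraries was 0.960 and 0.963, against 0.984 between those. OE replicate 3 correlated with its group like the others (r of 0.977 to 0.978) but held the highest ER chaperone levels of all 9 ethanol-fed libraries. Calls between OE and KO that were lost without 1 of these 6 libraries are named beside the gene, and every other called gene whose values are given kept its call without each of the 6 libraries.

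Yap1 RNA separated the groups with the smallest p of all genes. It stood at 144, 115 and 106 CPM in OE, at 4.76, 3.34 and 5.08 CPM in KO and at 62.5, 66.6 and 58.1 CPM in the ethanol-fed controls. Every OE library lay above every control and every control above every KO library, and the mean in OE was 27.7 times that in KO. Yap1 differed by 4.51 ± 0.38, adjusted p = 3.83e-06. Neither the species of the transgene nor where the amplicon for Yap1 sits (inside or outside the loxP sites) is given, so transgene and deleted RNA can be counted unequally. Of the 21 Hippo pathway genes tested, 2 were called at an adjusted p under 0.05, Yap1 itself and Wwc1, against 1.88% of all genes tested in both directions. Wwc1 encodes KIBRA, which switches the Hippo kinases on. It had 56.3, 64.7 and 47.9 CPM in OE, 33, 30.2 and 24.8 CPM in KO and 28.5, 31.5 and 38.3 CPM in controls, so only OE lay apart, and it rose by 0.92 ± 0.18, adjusted p = 0.0117, with the call lost without OE replicate 2 at an adjusted p of up to 0.0666. Wwtr1, which encodes the YAP relative TAZ, had 10.5, 5.71 and 8.44 CPM in OE, 17.9, 10.0 and 10.9 CPM in KO and 7.13, 6.76 and 8.68 CPM in controls. Its OE and KO libraries overlapped and it did not pass the test. The value of Wwtr1 was -0.59 ± 0.26, adjusted p = 0.287.

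The classical target genes of YAP and TEAD moved much less than Yap1 and not in one direction. Of 25 listed, 21 were tested, 1 was called higher (Nuak2), 1 was called lower (Dock5), and 12 had a positive difference. Of all genes, 0.529% were called higher, 1.35% lower and 45.0% had a positive difference. The median of the list was 0.06, against -0.05 over all genes. Nuak2, a kinase gene, had 38.5, 46.8 and 64.8 CPM in OE, 29.1, 32.1 and 21.6 CPM in KO and 32.8, 35 and 32.3 CPM in controls. Nuak2 differed by 0.82 ± 0.21, adjusted p = 0.0489, with the call lost without KO replicates 1, 2 or 3 or OE replicates 2 or 3 at an adjusted p of up to 0.212. Dock5, an activator of Rac, ran against the name of its list with 11.4, 9.21 and 9.3 CPM in OE and 18.5, 18.2 and 17.4 CPM in KO, the controls at 11.6, 14.5 and 14.7 CPM. Dock5 differed by -0.80 ± 0.20, adjusted p = 0.0422, with the call lost without any 1 of the 6 libraries and an adjusted p of up to 0.141. Cyr61, which encodes the matricellular protein CCN1, had 9.21, 9.95 and 9.64 CPM in OE and 5.31, 4.82 and 4.53 CPM in KO. These libraries did not overlap, but the difference of 0.85 ± 0.25 missed the threshold (adjusted p = 0.0919), and the controls at 4.28, 7.15 and 8.33 CPM ran from one group to the other. Amotl2, a junction protein that binds YAP, had 48.6, 37.8 and 32.7 CPM in OE and 19.6, 16 and 29 CPM in KO (controls 15, 19.5 and 32.3 CPM; 0.88 ± 0.27, adjusted p = 0.107), and passed at 1.10 ± 0.29, adjusted p = 0.0496, without KO replicate 3. Ctgf (CCN2) had 17.9, 3.5 and 7.41 CPM in OE against 11.9, 10.0 and 8.7 CPM in KO (controls 11, 9.27 and 11.5 CPM), so the OE libraries lay on both sides of KO. The value of Ctgf was -0.32 ± 0.42, adjusted p = 0.781. Ankrd1 held 0 to 0.363 CPM in the 9 ethanol-fed libraries and was too low to test.

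**Figure D1:**
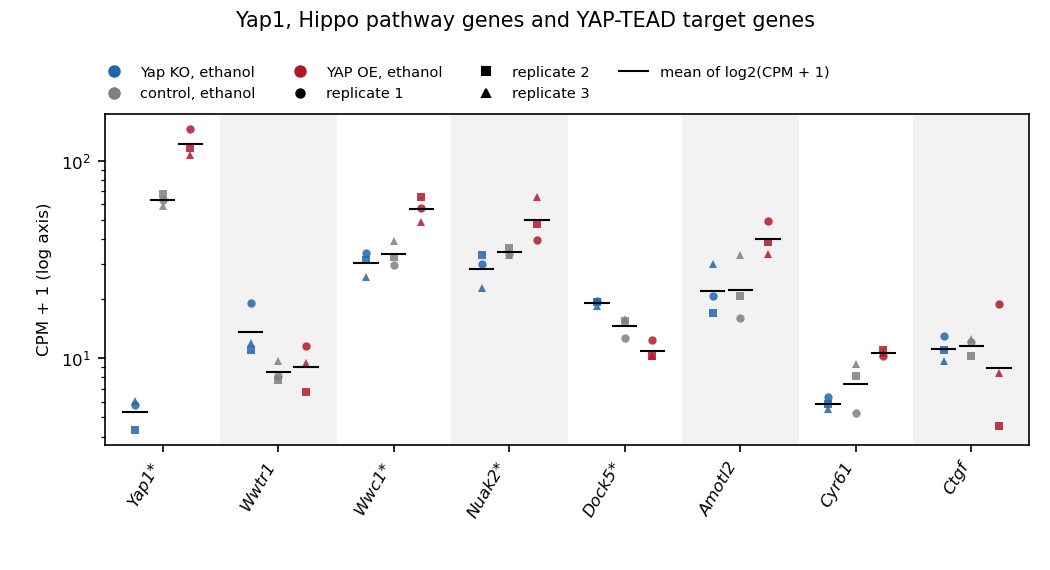
CPM + 1 on a log axis for Yap1, Wwtr1, Wwc1 and 5 YAP-TEAD target genes in each ethanol-fed library of KO, control and OE, with symbols for replicates, a bar at the mean of log2(CPM + 1) and an asterisk for an adjusted p under 0.05 between OE and KO. Yap1 steps up from KO through control to OE in all 9 libraries, while Ctgf of OE lies on both sides of KO.

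Across all 11720 genes tested, 220 (1.88%) were called, 62 (0.529%) higher and 158 (1.35%) lower in OE than in KO. By TMM scaling the split was 91 higher (0.776%) and 140 lower (1.19%). On the recovered reads edgeR called 79 higher (0.674%) and 139 lower (1.19%), and DESeq2 200 higher (1.71%) and 288 lower (2.46%). Of all genes 45.0% had a positive difference, and 15.4% had an unadjusted p under 0.05. Without single libraries the count ran from 83 (without OE replicate 3) to 271 (without KO replicate 3). The other low counts were 87 without OE replicate 2, 87 without KO replicate 2, 100 without KO replicate 1 and 137 without OE replicate 1. On the same diet, OE against control gave 12 calls (0.102%) and KO against control 2 (0.0171%), which were Yap1 and Hmox1, both lower in KO. These counts depended on the method. By edgeR they were 14 and 3, by DESeq2 103 and 47, and by limma with array weights 71 and 105, where KO had the more calls. Without single ethanol-fed libraries the OE against control count ran from 0 by limma (without OE replicate 3 or control replicate 2, with 761 and 814 genes at an unadjusted p under 0.05) to 22 (without KO replicate 3), with 5 without control replicate 1 and 7 without KO replicate 2. The KO against control count rose to 36 without KO replicate 3 and 9 without control replicate 1, and was 1 without control replicate 2 or 3 or KO replicate 2. Hmox1 encodes heme oxygenase 1, which breaks down heme. It had 41.2, 52.5 and 47.9 CPM in OE and 50.4, 22.6 and 25.6 CPM in KO, which overlapped (0.59 ± 0.40, adjusted p = 0.519), and 96.2, 183 and 349.8 CPM in controls, above both groups in every library. The control of Hmox1 thus lay outside the span from KO to OE, with KO minus control at -2.54 ± 0.40, adjusted p = 0.0241 and OE minus control at -1.94 ± 0.40, adjusted p = 0.0728. The KO minus control call of Hmox1 was lost without control replicate 2 or 3 or KO replicate 2, at an adjusted p of up to 0.218, and that of Yap1 was kept without each of the 9 libraries.

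**Figure D2:**
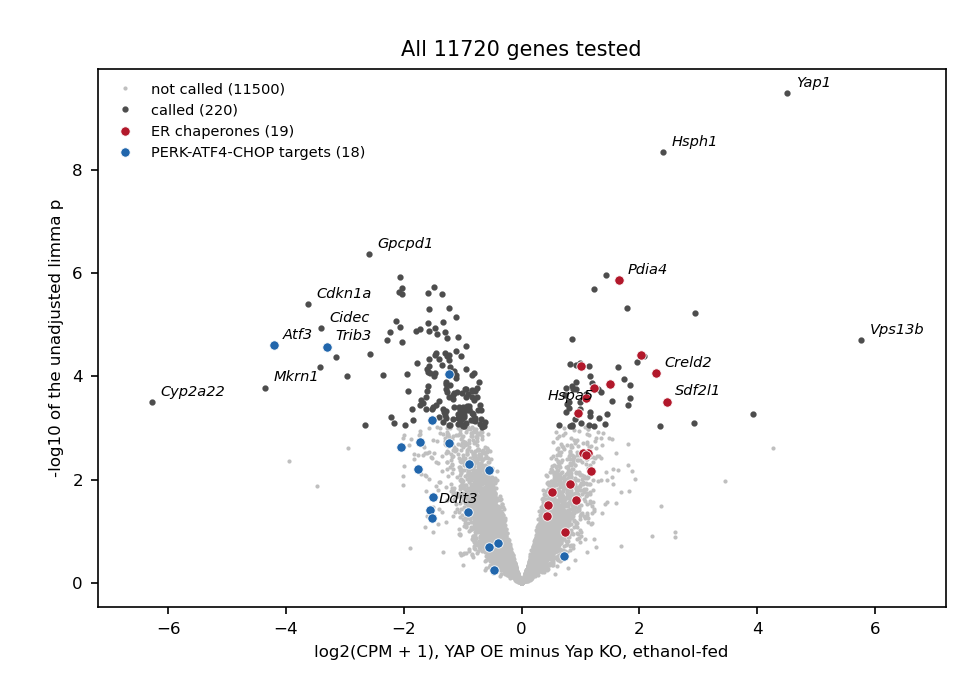
Log2 difference of OE minus KO on the ethanol diet against the -log10 of the unadjusted limma p for each gene tested, with the 220 called genes in dark grey, the 19 ER chaperone genes in red and the 18 PERK-ATF4-CHOP target genes in blue. All red points lie to the right of 0 and all but 1 of the blue points to the left.

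ER chaperones made up the largest group of called list members. All 19 tested had a positive difference (45.0% of all genes), 9 were called higher and none lower (0.529% of all genes were called higher), and the median was 1.09. In 15 of the 19 no OE library overlapped a KO library, against 8.94% of all genes with OE the higher group. The called members were Hspa5, Hsp90b1, Pdia3, Pdia4, Pdia5, Sdf2l1, Manf, Creld2 and Sel1l, and 13 were called higher by DESeq2 and 9 by edgeR on the recovered reads. The controls lay with KO: the median of the 19 was 1.10 for OE minus control and -0.01 for KO minus control. These genes are known targets of ATF6 in other work. The list was chosen with the subject of the series known.

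Hspa5 encodes BiP, the main HSP70 of the ER and the keeper of the stress sensors. It had 1446, 1516 and 4114 CPM in OE, 863, 842 and 552 CPM in KO and 673, 722 and 605 CPM in controls. OE lay above both other groups, and OE replicate 3 lay far above the other OE libraries. The difference was 1.50 ± 0.31, adjusted p = 0.0181, with the call lost without KO replicate 3 or OE replicate 3 at an adjusted p of up to 0.07, and OE minus control was 1.65 ± 0.31, adjusted p = 0.0467. The latter call was lost without any of the 3 control libraries, KO replicate 1 or 2 or OE replicate 3, at an adjusted p of up to 0.178. Hsp90b1, the ER HSP90 (GRP94), had 1753, 2191 and 5019.6 CPM in OE, 1101, 1142 and 1204 CPM in KO and 1142, 1278 and 1255 CPM in controls, KO and controls within a narrow band (1.22 ± 0.26, adjusted p = 0.0201, with the call lost without KO replicate 1 or 2 or OE replicate 3). Creld2, an ER protein with disulfide isomerase activity, had 157, 228 and 945 CPM in OE, 68.3, 51.2 and 81.8 CPM in KO and 62.4, 55.8 and 37.3 CPM in controls. Its OE mean was 6.6 times the KO mean and rose by 2.28 ± 0.46, adjusted p = 0.0138, with the call lost without KO replicate 2 at an adjusted p of up to 0.0702. Sdf2l1, a partner of BiP that keeps its clients in solution, spread most within OE, at 44.1, 77 and 329 CPM, against 14.1, 16.5 and 24.8 CPM in KO and 18.2, 16.8 and 12.1 CPM in controls. Sdf2l1 differed by 2.47 ± 0.56, adjusted p = 0.0276, with the call lost without KO replicates 1 or 2 or OE replicates 2 or 3 at an adjusted p of up to 0.126. Manf, a secreted factor that binds BiP, had 335, 375 and 1009 CPM in OE, 134, 93 and 149.6 CPM in KO and 86.4, 169.9 and 131 CPM in controls. Manf differed by 2.02 ± 0.38, adjusted p = 0.00958, with the call lost without KO replicate 2 or OE replicate 3 at an adjusted p of up to 0.0547.

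Pdia4 and Pdia5, disulfide isomerases, were the steadier members. Pdia4 had 424, 521 and 1023 CPM in OE, 182, 186 and 209 CPM in KO and 233, 192 and 199.7 CPM in controls, and the lowest OE library lay above every other. Pdia4 differed by 1.66 ± 0.24, adjusted p = 0.0023. Pdia5 had 288, 354 and 451 CPM in OE, 202, 175 and 158 CPM in KO and 212, 129 and 169 CPM in controls. Pdia5 differed by 1.01 ± 0.20, adjusted p = 0.0117, with the call lost without OE replicate 3 at an adjusted p of up to 0.0688. OE replicate 3 held the highest level of every gene named here, and without it the list's median fell to 0.77, all 19 differences stayed positive and 2 members were called, Pdia4 (1.29 ± 0.19, adjusted p = 0.008) and Creld2 (1.51 ± 0.34, adjusted p = 0.0481). Hspa5 then stood at 1.00 ± 0.25, adjusted p = 0.07. Without KO replicate 3 the list had 7 calls and a median of 1.17, with 3 calls without KO replicate 2 and 5 without KO replicate 1. As a mean over the 19 genes, log2 levels relative to the ethanol-fed control mean were 0.92, 0.92 and 1.93 in the OE libraries and 0.11, -0.07 and 0.18 in the KO libraries, so each OE library was above each KO library. Members that missed the threshold included Calr, the lectin chaperone calreticulin, with 1193, 1028 and 1507 CPM in OE and 581, 513 and 588 CPM in KO (controls 588, 649 and 608 CPM; 1.13 ± 0.33, adjusted p = 0.0897), and Canx, its membrane-bound relative, at 0.43 ± 0.21, adjusted p = 0.328 (controls 117, 149 and 189.8 CPM, OE 256, 192 and 263 CPM and KO 165, 137 and 231 CPM).

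**Figure D3:**
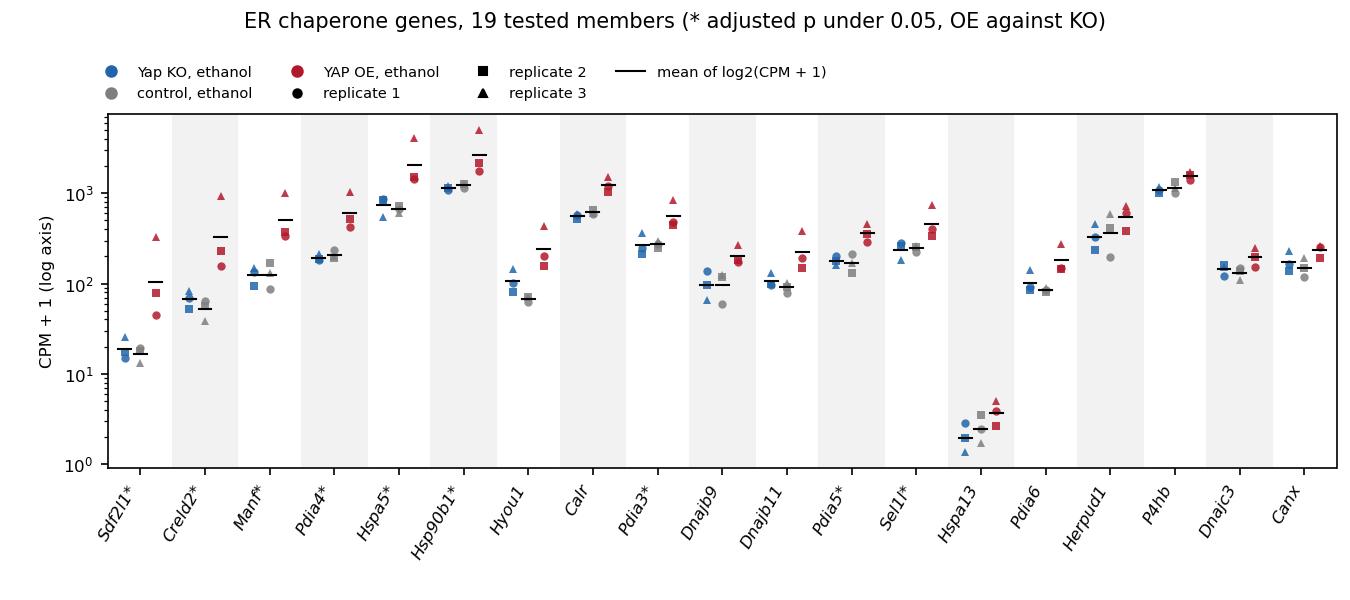
CPM + 1 on a log axis of the 19 ER chaperone genes in each ethanol-fed library of KO, control and OE, in order of the OE minus KO difference, with an asterisk for an adjusted p under 0.05. For 15 of the 19 genes the red OE points lie above all blue KO points, and for the 9 called genes the red triangle of OE replicate 3 lies highest and the grey controls overlap KO.

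The promoters of 3 called chaperones are shown because ATF6 acts on them through a defined sequence. The windows are the 250 bases before the RefSeq start on the gene's strand (GRCm38.p6), in lower case, with the fixed letters of each match to the ERSE in capitals. The ERSE was searched on both strands as CCAAT, any 9 bases and CCACG, and a match on the reverse strand reads CGTGG to ATTGG. Of the 19 members 16 had an entry, and 7 of the 16 held a match: Hspa5, Hsp90b1, Creld2, Pdia6, Calr, Canx and Dnajc3. The motif stood in 37 of all 32851 windows (0.113%). The members were listed as known targets of ATF6, so their share with a match is a description. Hsp90b1 held 2 matches, which began 212 and 107 bases before the start, and Hspa5 and Creld2 held 1 each at 65 and 126 bases.
Hspa5 promoter, chr2:34771840-34772089, plus strand: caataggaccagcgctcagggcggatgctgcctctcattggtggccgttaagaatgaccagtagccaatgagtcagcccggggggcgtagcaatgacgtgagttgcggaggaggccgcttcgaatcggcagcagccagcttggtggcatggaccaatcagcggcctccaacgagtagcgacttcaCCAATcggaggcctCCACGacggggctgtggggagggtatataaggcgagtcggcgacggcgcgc
Hsp90b1 promoter, chr10:86705445-86705694, minus strand: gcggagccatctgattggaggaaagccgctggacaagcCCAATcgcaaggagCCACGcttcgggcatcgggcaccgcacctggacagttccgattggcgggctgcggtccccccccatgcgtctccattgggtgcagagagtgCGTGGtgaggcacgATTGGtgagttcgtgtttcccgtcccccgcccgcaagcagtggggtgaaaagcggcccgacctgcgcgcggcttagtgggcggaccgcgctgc
Creld2 promoter, chr15:88819396-88819645, plus strand: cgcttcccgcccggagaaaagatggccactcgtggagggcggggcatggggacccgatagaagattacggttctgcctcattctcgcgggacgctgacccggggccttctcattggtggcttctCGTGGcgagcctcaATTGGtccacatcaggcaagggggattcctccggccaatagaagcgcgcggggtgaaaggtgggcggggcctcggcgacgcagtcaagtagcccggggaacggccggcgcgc

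Read in the direction of the motif, the matches of the 4 members that were not called show different bases between the fixed parts.
Pdia6: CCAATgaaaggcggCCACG
Calr: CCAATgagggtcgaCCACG
Canx: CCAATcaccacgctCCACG
Dnajc3: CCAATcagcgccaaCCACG

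All 7 members with a match had a positive difference, as did all 19 tested members, so their direction does not set them apart. Of the 7, 3 were called (Hspa5, Hsp90b1 and Creld2), where 9 of the 19 and 0.529% of all genes were called higher. The called genes Pdia4, Pdia3, Sdf2l1, Pdia5 and Sel1l held no match in this window, and Manf had no entry. Outside the list, 8 tested genes had a match, of which 5 had a positive difference (45.0% of all genes) and none was called (1.88% of all genes). Their median was 0.44, against -0.05 over all genes. A match describes letters, not a site that ATF6 was seen to use.

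Genes downstream of PERK, ATF4 and CHOP ran the other way. Of 18 tested, 17 had a negative difference and 1 a positive one (45.0% of all genes). Among the 18, 4 were called lower (Atf3, Trib3, Sesn2 and Slc3a2) and none higher, where 1.35% of all genes were called lower. The median was -1.37. On the recovered reads 5 were called lower by edgeR and 9 by DESeq2. Here the controls lay between the groups, with a median of -0.55 for OE minus control and 0.81 for KO minus control. Chac1, which degrades glutathione, was the 1 positive member at 0.72 ± 0.69, adjusted p = 0.678 (controls 7.66, 6.57 and 11.5 CPM, OE 7.95, 2.58 and 1.72 CPM and KO 1.47, 2.78 and 1.09 CPM). In 9 of the 18 the groups did not overlap, against 12.5% of all genes with OE the lower group.

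Atf3, a stress-induced transcription factor, had 2.53, 6.26 and 3.27 CPM in OE, 141, 193 and 23.8 CPM in KO and 11.2, 18.2 and 16 CPM in controls. KO replicates 1 and 2 stood far above the controls, KO replicate 3 just above them and OE below. Atf3 differed by -4.20 ± 0.76, adjusted p = 0.0076. Trib3, a pseudokinase induced by CHOP, had 5.24, 3.13 and 4.13 CPM in OE, 98.9, 122 and 9.43 CPM in KO and 6.24, 13.3 and 7.81 CPM in controls, so KO replicate 3 lay among the controls. Trib3 differed by -3.31 ± 0.60, adjusted p = 0.00773. Slc3a2, the heavy chain of amino acid exchangers, had 38.8, 31.7 and 37.7 CPM in OE, 119, 104 and 51.1 CPM in KO and 33.1, 50.02 and 45.8 CPM in controls. Slc3a2 differed by -1.23 ± 0.25, adjusted p = 0.0141, with the call lost without KO replicates 1 or 2 or OE replicate 2 at an adjusted p of up to 0.0769. Sesn2 (sestrin 2, a leucine sensor) had 5.6, 1.29 and 2.76 CPM in OE and 9.16, 16.3 and 6.71 CPM in KO (controls 4.99, 5.21 and 7.11 CPM). Sesn2 differed by -1.53 ± 0.38, adjusted p = 0.0426, with the call lost without KO replicates 1 or 2 or OE replicates 2 or 3 at an adjusted p of up to 0.204. Ddit3, which encodes CHOP, had 9.75, 21 and 24.1 CPM in OE, 126, 153 and 6.71 CPM in KO and 9.8, 11.4 and 11.5 CPM in controls. KO replicates 1 and 2 were high, KO replicate 3 was the lowest of the 9 libraries, and the difference of -1.55 ± 0.70 missed the threshold (adjusted p = 0.289).

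The size of the difference came mainly from 2 of the 3 KO libraries. Its mean log2 level relative to the ethanol-fed control was 1.13, 1.41 and -0.11 in KO and -0.36, -0.79 and -0.54 in OE, so that KO replicate 3 lay above the OE libraries but below the control mean. Asns, asparagine synthetase, split KO the same way, with 18.9, 20.8 and 2.36 CPM in KO and 3.79, 0.921 and 3.1 CPM in OE (controls 6.77, 8.69 and 2.26 CPM). Without KO replicate 3 the list had 10 calls, all lower, with a median of -1.59: Ddit3 (-2.95 ± 0.31, adjusted p = 6.93e-05), Atf3, Trib3, Asns, Psat1, Sesn2, Ppp1r15a, Slc3a2, Nupr1 and Mthfd2. Leaving out KO replicate 1 or 2 gave 3 and 2 calls, and leaving out OE replicate 2 gave 2.

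The Atf3 promoter window holds the ATF4-binding letters TGATGCAA on the reverse strand, beginning 110 bases before the start and printed in capitals as TTGCATCA. The same 8 letters on either strand stood in 260 of the 32851 windows (0.791%) and in 6 of the 19 list members with an entry (Atf3, Chac1, Fgf21, Slc7a11, Vldlr and Nupr1). Of 61 tested genes outside the list with the letters, 1 was called lower (Got1) and none higher, and the median was -0.09. Over all genes 1.35% were called lower and the median was -0.05, so these genes lay near all genes.
Atf3 promoter, chr1:191183334-191183583, minus strand: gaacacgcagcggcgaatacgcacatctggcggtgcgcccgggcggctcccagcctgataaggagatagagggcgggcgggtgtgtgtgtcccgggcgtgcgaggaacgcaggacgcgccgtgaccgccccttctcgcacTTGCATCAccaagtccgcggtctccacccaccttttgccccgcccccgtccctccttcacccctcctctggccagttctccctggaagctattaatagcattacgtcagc

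**Figure D4:**
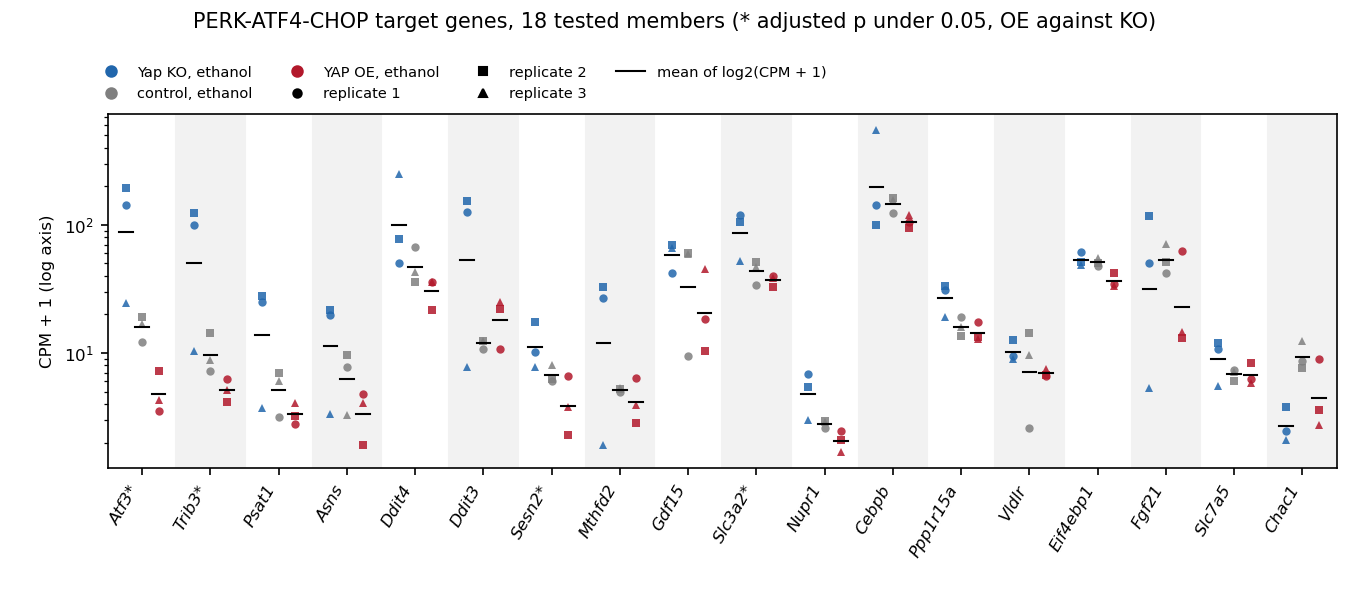
CPM + 1 on a log axis of the 18 PERK-ATF4-CHOP target genes in each ethanol-fed library of KO, control and OE, in order of the OE minus KO difference, with an asterisk for an adjusted p under 0.05. Blue circles and squares, KO replicates 1 and 2, lie highest for Atf3, Trib3 and Ddit3, while the blue triangle of KO replicate 3 lies near or below the grey controls.

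The sensors themselves and the IRE1 arm showed smaller differences. None of 8 sensor and effector genes was called by limma, and 1 had an unadjusted p under 0.05 (15.4% of all genes). That gene was Atf6, with 140.1, 114 and 160.0 CPM in OE, 195, 175 and 170.4 CPM in KO and 97.3, 124 and 142 CPM in controls, lower in each OE than in each KO library. The value of Atf6 was -0.39 ± 0.18, adjusted p = 0.287. Eif2ak3, which encodes PERK, stood at 0.56 ± 0.28, adjusted p = 0.359 (controls 17.3, 30.5 and 34.5 CPM, OE 33.9, 31.1 and 38.4 CPM and KO 32.8, 24.1 and 15.4 CPM). Among 22 genes of XBP1 and ERAD, 18 had a positive difference (45.0% of all genes) and the median was 0.37. None was called by limma, with 7 at an unadjusted p under 0.05 (15.4% of all genes). By edgeR 1 was called higher (0.674% of all genes) and by DESeq2 4 (1.71% of all genes). Syvn1, the ubiquitin ligase HRD1 at the ER exit for misfolded proteins, had 208, 155 and 629 CPM in OE, 136, 114 and 87.4 CPM in KO and 90.3, 105 and 87.6 CPM in controls, with OE replicate 3 far above the rest. The value of Syvn1 was 1.30 ± 0.34, adjusted p = 0.0563. Ero1lb, an ER oxidase that serves the disulfide isomerases, had 42.8, 36.7 and 75.3 CPM in OE and 24.2, 25.8 and 25.6 CPM in KO (controls 27.4, 17.2 and 24.3 CPM). The value of Ero1lb was 0.94 ± 0.27, adjusted p = 0.0879. Sel1l, the partner of HRD1, is counted above with the chaperones.

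In the cytosol 1 heat shock gene of 11 tested was called higher, Hsph1 (0.529% of all genes), and 10 had a positive difference (45.0% of all genes), at a median of 0.25. Hsph1 encodes HSP105, a nucleotide exchange factor of HSP70. It had 192, 286 and 377 CPM in OE, 57.7, 55.5 and 41.3 CPM in KO and 95.3, 66.6 and 73 CPM in controls, in 3 bands without overlap. It rose by 2.41 ± 0.24, adjusted p = 2.60e-05 and was also called in OE minus control (1.81 ± 0.24, adjusted p = 0.00406), a call lost without control replicate 2 or OE replicate 3 at an adjusted p of up to 0.0642. Dnajb1, an HSP40 partner, had 30.9, 54.7 and 59.1 CPM in OE and 21.6, 26 and 16 CPM in KO (controls 28.1, 22 and 27.6 CPM), without overlap, and missed the threshold. The value of Dnajb1 was 1.12 ± 0.29, adjusted p = 0.0521.

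Genes of p53 and of lipid droplets were among the largest falls from KO to OE. Of 24 p53 targets 3 were called lower (Cdkn1a, Trp53inp1 and Sesn2), none higher, 6 had a positive difference and the median was -0.29. Of all genes, 1.35% were called lower and 45.0% had a positive difference. Cdkn1a, the cell cycle inhibitor p21, had 37.7, 19 and 29.5 CPM in OE and 341, 375 and 349 CPM in KO, with the controls spread between them at 187, 277 and 46.2 CPM. The KO mean was 12.4 times the OE mean. Cdkn1a differed by -3.63 ± 0.57, adjusted p = 0.00329. Trp53inp1, a p53 cofactor in stress, had 35.9, 38.3 and 57.5 CPM in OE, 166, 155 and 380.0 CPM in KO and 75.5, 98.1 and 119.7 CPM in controls, so the controls filled the space between the groups. Trp53inp1 differed by -2.29 ± 0.41, adjusted p = 0.00639. With TMM scaling or edgeR 1 p53 target was called higher and 3 lower, and with DESeq2 1 higher and 4 lower.

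Of 22 genes of lipid droplets and fatty acid uptake 3 were called lower (1.35% of all genes) and none higher, at a median of 0.01. Cidec, which fuses droplets into larger ones, had 12.6, 11.2 and 10.3 CPM in OE, 145, 166 and 90.7 CPM in KO and 49.7, 66 and 30.2 CPM in controls. The KO mean was 11.7 times the OE mean with no overlap of any of the 3 groups. Cidec differed by -3.40 ± 0.58, adjusted p = 0.00543. Plin5, a droplet coat protein that tethers mitochondria, had 67.2, 59.9 and 56.1 CPM in OE, 114, 143 and 188 CPM in KO and 138, 118 and 100.8 CPM in controls. Plin5 differed by -1.24 ± 0.23, adjusted p = 0.00958. Pnpla2, the triglyceride lipase ATGL, had 71.1, 72 and 85.3 CPM in OE and 152, 143 and 209 CPM in KO, the controls in between at 119, 139.8 and 107 CPM. Pnpla2 differed by -1.12 ± 0.23, adjusted p = 0.0153, with the call lost without OE replicates 1 or 2 at an adjusted p of up to 0.0685. A lipase and a droplet fusion protein, whose known actions on stored fat are opposed, thus fell together.

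A further 4 lists each held 2 called genes, against 1.88% of all genes called. Tested were 20 genes of heme and iron handling, 22 acute phase, 27 periportal and 29 xenobiotic genes. Of these 13, 14, 12 and 15 had a positive difference (45.0% of all genes), at medians of 0.19, 0.23, -0.16 and 0.02. Both calls of the periportal list were lower, and in each other list 1 was higher and 1 lower. In heme and iron handling, Slc39a14, the zinc and iron importer ZIP14, fell to 152, 151 and 189 CPM in OE from 327, 296 and 431 CPM in KO (controls 276, 302 and 205 CPM; -1.08 ± 0.19, adjusted p = 0.00627). Cpox, an enzyme of heme synthesis, had 263, 226 and 213 CPM in OE and 151, 134 and 106 CPM in KO, while the controls overlapped both at 217, 186 and 111 CPM. Cpox differed by 0.85 ± 0.22, adjusted p = 0.0489, with the call lost without any 1 of the 6 libraries and an adjusted p of up to 0.152. Among acute phase genes, Crp, the C-reactive protein, rose to 541, 633 and 813 CPM in OE from 287, 258 and 289 CPM in KO with the controls at 385, 484 and 644 CPM, between the groups or among OE. Crp differed by 1.23 ± 0.18, adjusted p = 0.0023. Steap4, a metalloreductase, ran the other way at 118, 153 and 229 CPM in OE and 416, 321 and 300.2 CPM in KO (controls 179.9, 248 and 289.6 CPM). Steap4 differed by -1.09 ± 0.27, adjusted p = 0.0408, with the call lost without KO replicates 1 or 2 or OE replicates 1 or 2 at an adjusted p of up to 0.163. The periportal genes Sds, serine dehydratase, and Slc7a2, a carrier of basic amino acids, were both lower in OE. Sds had 199.5, 121 and 179 CPM in OE and 331, 362 and 1075 CPM in KO (controls 378, 381 and 241 CPM; -1.63 ± 0.36, adjusted p = 0.0243, with the call lost without KO replicate 3 or OE replicates 2 or 3 at an adjusted p of up to 0.131), and Slc7a2 had 79.3, 80.1 and 81.1 CPM in OE and 121, 136 and 409.8 CPM in KO (controls 119.9, 169 and 153 CPM). Slc7a2 differed by -1.23 ± 0.31, adjusted p = 0.0489, with the call lost without KO replicates 2 or 3 or OE replicates 1, 2 or 3 at an adjusted p of up to 0.141. KO replicate 3 held the highest value of both, and without it neither passed the test (adjusted p = 0.0696 and 0.0955).

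Of the xenobiotic list, Nr1i2, the drug-sensing receptor PXR, was lower in OE at 55.3, 41.3 and 40.1 CPM against 85.9, 90.5 and 122 CPM in KO (controls 54.9, 71.3 and 74.6 CPM; -1.11 ± 0.20, adjusted p = 0.00899). Fmo1, a flavin monooxygenase, was higher in OE at 723, 617 and 621 CPM against 399, 388 and 327 CPM in KO, with the controls at 464, 543 and 545 CPM between them. Fmo1 differed by 0.82 ± 0.16, adjusted p = 0.0114. Igfbp1, a liver protein that binds insulin-like growth factors and rises in fasting, had 211, 25.6 and 30.5 CPM in OE and 369, 404 and 1472 CPM in KO, with the controls overlapping OE at 361, 143 and 255 CPM. Igfbp1 differed by -3.43 ± 0.67, adjusted p = 0.0117, with the call lost without OE replicates 2 or 3 at an adjusted p of up to 0.0781. KO replicate 3 was again highest for Igfbp1, where the difference without it was -2.79 ± 0.69, adjusted p = 0.0416. Gpcpd1, which breaks down glycerophosphocholine, separated OE from both other groups, with 45.7, 41.3 and 34.1 CPM in OE, 229, 199 and 333 CPM in KO and 169, 306 and 131.9 CPM in controls. Gpcpd1 differed by -2.60 ± 0.35, adjusted p = 0.00169. Csad, an enzyme of taurine synthesis, had 90.6, 36.3 and 10.3 CPM in OE, 226, 231 and 519 CPM in KO and 107.6, 34 and 59.5 CPM in controls, and the controls overlapped OE. Csad differed by -3.15 ± 0.60, adjusted p = 0.00959, with the call lost without OE replicate 3 at an adjusted p of up to 0.0546. Fibin had 0.722, 0.184 and 0.517 CPM in OE, 16.1, 28 and 1.99 CPM in KO and 0, 3.28 and 1.39 CPM in controls (-2.97 ± 0.61, adjusted p = 0.0142, with the call lost without KO replicates 1 or 2 or OE replicates 2 or 3 at an adjusted p of up to 0.0855), with KO replicates 1 and 2 high.

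Markers of other liver cells were checked because bulk RNA cannot tell fewer cells of a type from less RNA per cell. Of 18 Kupffer cell and macrophage markers tested, 17 had a positive difference (45.0% of all genes), 1 was called higher (0.529% of all genes) and none lower, and the median was 0.69. With TMM scaling 2 were called higher, with edgeR 1 and with DESeq2 5. Their summed level was 703 to 752 CPM in OE, 428 to 473 CPM in KO and 589 to 962 CPM in controls over 21 markers, of which C1qa was at 0. KO was thus the low group, and controls overlapped OE. The called gene was Cd5l, a macrophage protein in serum, with 190.1, 164 and 169.6 CPM in OE, 81, 64 and 102 CPM in KO and 199, 126 and 133 CPM in controls. Cd5l differed by 1.10 ± 0.24, adjusted p = 0.0223, with the call lost without KO replicates 1 or 2 or OE replicates 1, 2 or 3 at an adjusted p of up to 0.116. Clec4f, the defining receptor of Kupffer cells, had 82.3, 87.7 and 79.1 CPM in OE and 47.6, 40.5 and 41.2 CPM in KO (controls 136, 64.1 and 57.8 CPM). The value of Clec4f was 0.93 ± 0.26, adjusted p = 0.067. Whether these cells had a part in the chaperone result was not tested.

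Neutrophil markers summed to 168 to 1229.5 CPM in OE, 256 to 840.0 CPM in KO and 111 to 656 CPM in controls. OE replicate 1 and KO replicate 3 were the low libraries of their groups, and Mpo was at 0. Only 7 of the 16 markers passed the filter. S100a9 had 1.63, 11.4 and 1.72 CPM in OE, 2.56, 1.3 and 1.27 CPM in KO and 18.7, 1.93 and 0.521 CPM in controls. The sum thus rested on other members and did not follow S100a9, so it is no measure of neutrophil number. Lymphocyte markers summed to 10.8 to 16.2 CPM in OE, 6.96 to 10.3 CPM in KO and 7.29 to 16.6 CPM in controls, which overlapped both. Every OE sum lay above every KO sum, by little and over 17 markers at low levels. Of 11 tested, none was called (1.88% of all genes). In 1 of the 11 OE lay above KO without overlap (8.94% of all genes). Sinusoidal endothelial markers (758 to 932 and 626 to 904 CPM) and stellate cell and fibrosis genes (1760.2 to 1889.5 and 1700.5 to 1890.3 CPM) each overlapped between OE and KO. Biliary and progenitor markers, which YAP is known to raise in hepatocytes, had 0 calls among 13 tested by limma. In that list 2 had an unadjusted p under 0.05, where 15.4% of all genes did. The markers summed to 162 to 192 CPM in OE and 164 to 188 CPM in KO. Within that list Sox9, a biliary transcription factor, had 9.57, 4.24 and 5.17 CPM in OE, 18.7, 16.9 and 12.9 CPM in KO and 14.3, 15.3 and 10.8 CPM in controls (-1.28 ± 0.38, adjusted p = 0.089), and Pkhd1, fibrocystin, stood at 0.79 ± 0.30, adjusted p = 0.192 (controls 2.67, 3.28 and 2.26 CPM, OE 6.14, 5.34 and 5 CPM and KO 1.83, 3.34 and 3.26 CPM).

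Several of the largest differences came from genes that were near absent in one group and plain in the other. Mkrn1, a ubiquitin ligase gene, had 0 CPM in each OE library, 29.1, 22.3 and 11.1 CPM in KO and 15.5, 0 and 21.9 CPM in controls, and was at least 38.8-fold lower in OE, taking 3 reads per library as the floor. Mkrn1 differed by -4.35 ± 0.93, adjusted p = 0.0201, with the call lost without KO replicates 1 or 2 or OE replicates 1, 2 or 3 at an adjusted p of up to 0.0762. Vps13b, a lipid transfer protein of the Golgi, had 58.9, 50.8 and 60.1 CPM in OE and 0, 0.186 and 0 CPM in KO, the latter from 1 read in all, with controls at 23.5, 53.5 and 46.8 CPM. Vps13b differed by 5.76 ± 1.02, adjusted p = 0.00639. Its ratio of reads was 928 with a 95% exact interval of 166 to 36685, which covers counting error only. Cyp2a22, a cytochrome P450, had 0.361, 0.553 and 1.03 CPM in OE and 173, 115 and 96.8 CPM in KO, with controls at 41.9, 0.579 and 266 CPM that ran from the OE level to beyond KO. Cyp2a22 differed by -6.27 ± 1.43, adjusted p = 0.0276, with the call lost without KO replicates 1 or 2 or OE replicates 1, 2 or 3 at an adjusted p of up to 0.099. The controls of Mkrn1 and Cyp2a22 split alike, with replicate 2 at the level of OE and replicates 1 and 3 at or near that of KO. Raet1d and Raet1e are neighbouring genes for ligands of the NKG2D receptor of natural killer cells. Raet1d had 30.2, 27.8 and 21.9 CPM in OE, 1.47, 0.371 and 0.725 CPM in KO and 0.713, 27.6 and 20.6 CPM in controls. Raet1d differed by 3.93 ± 0.94, adjusted p = 0.0369, with the call lost without any 1 of the 6 libraries and an adjusted p of up to 0.123. Raet1e had 13.5, 17.5 and 10.3 CPM in OE, 0.733, 1.11 and 0.907 CPM in KO and 1.25, 14.3 and 12.8 CPM in controls. Raet1e differed by 2.92 ± 0.74, adjusted p = 0.0473, with the call lost without any 1 of the 6 libraries and an adjusted p of up to 0.162. Their controls split in another way, with replicate 1 near KO and replicates 2 and 3 near OE.

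On the pair-fed diet, in other libraries, OE and KO stayed apart for these genes, but Vps13b was not near absent in every KO library. Over both diets Vps13b had 44.7 to 61.6 CPM in OE, and its pair-fed KO libraries had 0, 21.2 and 24.4 CPM. Mkrn1 had 0 to 0.183 CPM in the 6 OE libraries of both diets and 7.05 to 29.1 CPM in the 6 KO libraries. Cyp2a22 had 0.183 to 1.32 CPM in OE and 96.8 to 327 CPM in KO, and Raet1d 21.9 to 39.5 CPM in OE and 0.371 to 6.62 CPM in KO. Controls with the GFP virus alone lay at either level within 1 group. What sets these levels was not tested, and the OE and KO labels and any other difference between the mice of these groups cannot be told apart. The Raet1 genes and the Cyp2a genes have near-identical relatives that can share reads, so their values are uncertain. Called genes with more even groups were Tlr12, a receptor for microbial profilin (35.6, 42.2 and 16.9 CPM in OE, 3.11, 4.64 and 1.63 CPM in KO, controls 5.34, 13.5 and 17.5 CPM; 2.95 ± 0.48, adjusted p = 0.00383), Dap, a regulator of autophagy (362, 506 and 428 CPM in OE, 97.3, 90.2 and 115.9 CPM in KO, controls 262, 542 and 407 CPM; 2.08 ± 0.39, adjusted p = 0.00958, with the call lost without OE replicate 2 at an adjusted p of up to 0.0511), and Slc22a27, an organic anion transporter (17, 15.5 and 23.9 CPM in OE, 2.56, 2.97 and 2.9 CPM in KO, controls 8.91, 43.1 and 8.33 CPM; 2.35 ± 0.60, adjusted p = 0.0489, with the call lost without any 1 of the 6 libraries and an adjusted p of up to 0.165).

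Where the ethanol-fed control lay was measured as its place on the line from the KO mean (0) to the OE mean (1) in log2(CPM + 1). Among the 220 called genes the control mean lay between the group means and nearer KO in 104, between them and nearer OE in 96, beyond KO in 13 and beyond OE in 7. The median place was 0.49, and it was 0.43 for the 62 higher and 0.49 for the 158 lower genes. Being called between OE and KO makes places between them likely, so these counts are a description. The 9 called chaperones had the control at -0.16 to 0.07, on KO, and in each of them the control libraries overlapped KO and not OE. The 4 called genes of the PERK arm had it at 0.47 to 0.81, nearer OE in 3. For Yap1 itself the place was 0.79. The control stood near OE for Rora, a clock receptor (1.02), Dap (0.93), Vps13b (0.91) and Slc22a27 (0.88), in midfield for Cdkn1a (0.38), Cidec (0.43) and Trp53inp1 (0.50), and near KO for Gpcpd1 (0.15), Wwc1 (0.17), Plin5 (0.24) and Hsph1 (0.25).

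**Figure D5:**
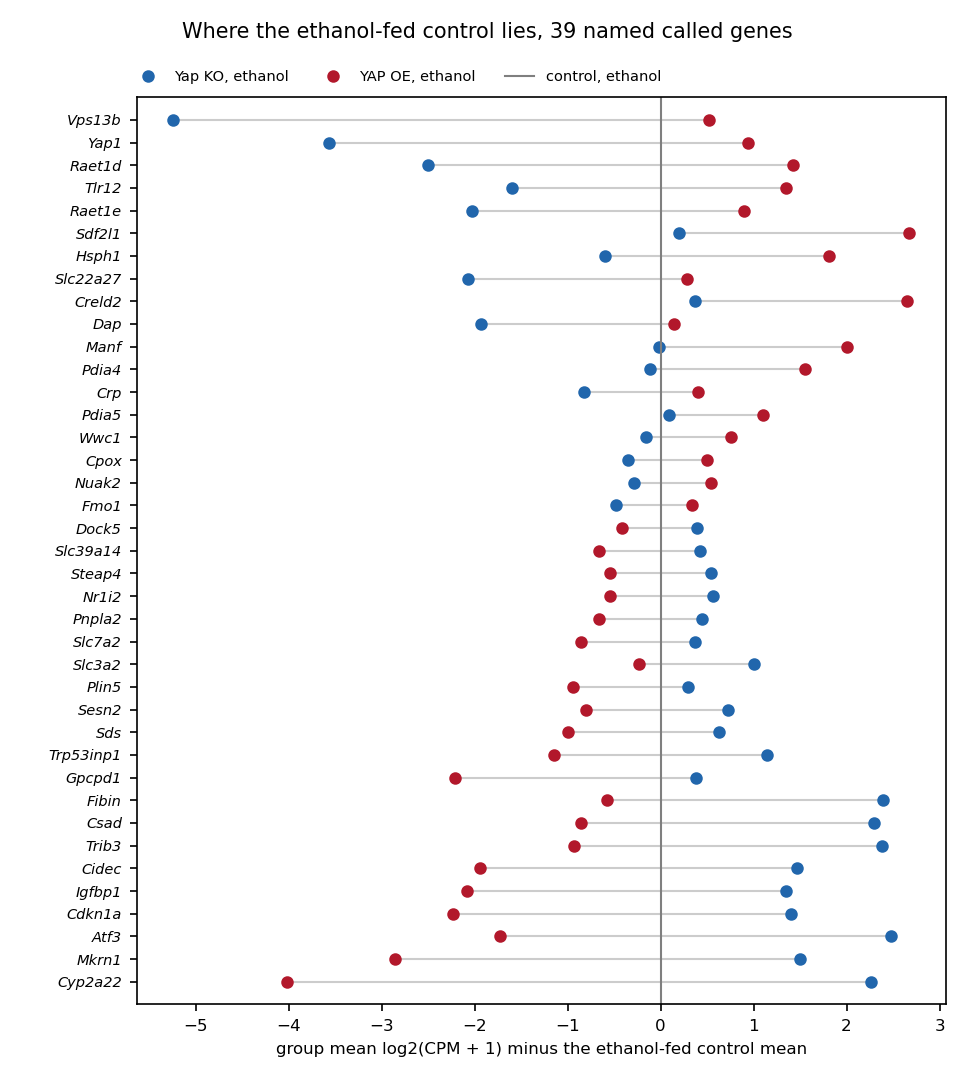
Group means of log2(CPM + 1) minus the ethanol-fed control mean (vertical line at 0) for 39 named called genes. The genes were called between OE (red) and KO (blue) and are ordered by the OE minus KO difference. Other called genes, among them Hspa5 and Hsp90b1, are not in these 39. For Manf, Pdia4, Pdia5, Creld2 and Sdf2l1 the blue point sits near the line and the red point far from it, while for Cdkn1a, Cidec and Trp53inp1 the line runs midway.

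On the pair-fed diet the same viruses were compared in other mice, with 160 genes called (1.37%). There the 3 KO libraries had Xist and the 3 OE libraries had Y-linked reads, so genotype and this sex pattern cannot be told apart. With a term for it no gene was called (0 by limma). The term rested on the pair-fed controls, the only group with both patterns, which left little power. Even Yap1, at 3.69 with the term, had a limma adjusted p of 0.198, so this fit cannot decide which pair-fed differences hold. The difference between the diets itself was called for 123 genes (1.05%), and for 53, 52 and 58 without OE ethanol replicate 1, 2 or 3, and for 78 and 65 without KO ethanol replicate 1 or 2. OE pair-fed replicate 1 had 57.6 CPM of Yap1, within the pair-fed controls. The pair-fed difference of Yap1 was 3.89 ± 0.38, adjusted p = 2.23e-05. Cyr61 passed there at 1.50 ± 0.25, adjusted p = 0.00388, and Hsph1 at 1.10 ± 0.24, adjusted p = 0.0228. The chaperones had a median difference of 0.24 there, Hspa5 at 0.66 ± 0.31, adjusted p = 0.35 and Pdia4 at 0.34 ± 0.24, adjusted p = 0.547. The PERK arm had a median of 0.15, with Atf3 at 0.24 ± 0.76, adjusted p = 0.925. Some genes ran the opposite way: Cidec stood at 2.82 ± 0.58, adjusted p = 0.0146 and Cdkn1a at 2.17 ± 0.57, adjusted p = 0.0669. In both, OE pair-fed replicate 2 was the highest pair-fed library, at 194 and 111 CPM, and no pair-fed library was left out in any fit. Of the 220 genes called on ethanol, 121 had the same sign on the pair-fed diet. The share of all genes with the same sign was not worked out, so this count shows no agreement between diets. Called there in the same direction were 5 of the 220, where 1.37% of all genes were called pair-fed in either direction.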

How the data were processed

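Liver RNA of 18 libraries was read with the Ion AmpliSeq mouse panel, per the labels' protocols. The authors deposited CPM for 23930 genes, and per-library log2(RPM + 1) values made with the vendor's program, per the file headers, which match log2(CPM + 1) within 2.0e-06. No source used here gives the aligner or build. Reads were recovered from the deposited CPM (100% of values whole, tolerance 0.02 reads).

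Kept were 11720 genes that reached 1 CPM in 3 or more of the 18 libraries. log2(CPM + 1), a pseudocount of 1, was fitted with limma 3.58.1 (lmFit, eBayes with trend, R 4.3.3) with 6 group means. Benjamini-Hochberg adjustment of the two-sided p-values ran over all genes tested, and an adjusted p under 0.05 was called. edgeR 4.0.16 (quasi-likelihood) and DESeq2 1.42.0 were run on the recovered reads, and the code was tested on simulated data. The comparison, the 39 gene lists and the genes named were chosen with earlier results of these data known.

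Named were Yap1, Wwtr1, Cyr61, Ctgf, Ankrd1, Amotl2, Atf6, Hspa5, Ddit3 and Hmox1, by size of change 10 rises and 10 falls among called genes with a mean of at least 5 CPM and groups that did not overlap, up to 4 called members (smallest adjusted p) of the 10 lists with most calls, and the 2 members with the smallest p of each other list described. Hsp90b1, Calr, Canx, Asns and Chac1 were chosen after their values were seen. Promoters came from RefSeq (GRCm38.p6). Of the listed genes, 757 were tested, and symbols outside the panel were not analysed here. No deposited value column was left out.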

Additional observations from a re-analysis of the deposited data

Results flagged for a closer look

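For 11 of the 47 named genes the OE minus KO difference itself differed between the diets (limma interaction, adjusted over all 11720 genes, of which 123 or 1.05% were called). Without 1 ethanol-fed OE or KO library 52 to 145 were called. No pair-fed library was left out, so how far the differences rest on 1 of them was not tested. Pair-fed OE replicates 1, 2 and 3 had 30.9, 194 and 18 CPM of Cidec and 26.9, 111 and 20.7 CPM of Cdkn1a, with replicate 2 far above the others. Values are the ethanol difference minus the pair-fed difference in log2(CPM + 1). For Slc22a27 it was 4.66 ± 0.85 (adjusted p = 0.0105), from 2.35 on ethanol and -2.30 pair-fed. For Cdkn1a it was -5.80 ± 0.80 (adjusted p = 0.0018), from -3.63 on ethanol and 2.17 pair-fed. For Cidec it was -6.23 ± 0.82 (adjusted p = 0.0018), from -3.40 on ethanol and 2.82 pair-fed. For Trib3 it was -4.71 ± 0.85 (adjusted p = 0.0105), from -3.31 on ethanol and 1.40 pair-fed. For Csad it was -3.74 ± 0.84 (adjusted p = 0.037), from -3.15 on ethanol and 0.59 pair-fed. For Gpcpd1 it was -3.17 ± 0.49 (adjusted p = 0.00387), from -2.60 on ethanol and 0.58 pair-fed.

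For Plin5 it was -2.00 ± 0.33 (adjusted p = 0.00576), from -1.24 on ethanol and 0.76 pair-fed. For Trp53inp1 it was -3.24 ± 0.57 (adjusted p = 0.0104), from -2.29 on ethanol and 0.95 pair-fed. For Crp it was 1.38 ± 0.26 (adjusted p = 0.0127), from 1.23 on ethanol and -0.15 pair-fed. For Steap4 it was -1.68 ± 0.38 (adjusted p = 0.037), from -1.09 on ethanol and 0.60 pair-fed. For Fmo1 it was 1.35 ± 0.22 (adjusted p = 0.00633), from 0.82 on ethanol and -0.53 pair-fed. The pair-fed KO libraries had Xist and the pair-fed OE libraries did not, so diet and this sex pattern cannot be told apart in these values. With a sex gene term in the fit all 11 kept their direction and 0 of 11 passed, and 1 gene of all tested was called by the limma interaction. That term rested on the pair-fed controls, the only group with both patterns, so the fit had little power and cannot decide whether the 11 differences hold. On ethanol alone, where all libraries had the same pattern, the differences of these genes stand as given in the comparison above.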

How the results depend on the processing

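The 220 calls became 766 with array weights (of which 219 of the 220) and 488 with DESeq2 (214 of the 220). They ran from 83 to 271 without 1 of the 6 compared libraries, and from 191 to 234 without 1 of the control libraries, an alternative chosen after seeing the data. In the other settings they ran from 156 (no filter on low values) to 245 (the 6 libraries alone), with 218 by edgeR. The share called higher was 28.2% with the main scaling, 39.4% with TMM and 37.4% with quantile normalization, while the median of all genes moved from -0.05 to 0.00 and 0.01. The replicate block gave 213 calls, and 191 on the 6 libraries alone. Same-numbered OE and KO libraries deviated together with r of 0.11, 0.15 and -0.01, so the numbers were not taken to pair them. Of 39 named calls 35 were kept with the replicate block (Raet1e, Sesn2, Nuak2 and Steap4 were not), 28 with the replicate block on the 6 libraries alone (Igfbp1, Trib3, Csad, Fibin, Pdia5, Slc3a2, Sesn2, Dock5, Nuak2, Steap4 and Slc7a2 were not), 38 with TMM, 39 with DESeq2, 26 with no filter, and 20 to 31 without 1 compared library. All 39 kept their direction in every setting run. Other called genes, among them Hspa5, Hsp90b1, Cd5l, Ifi27, Lpin1 and Rora, are not in these 39. Hspa5 kept its call with the replicate block, TMM, DESeq2 and no filter. On the 6 libraries alone it lost the call (adjusted p = 0.0552), also with the replicate block added (adjusted p = 0.114). Without KO replicate 3 or OE replicate 3 its call was lost as well, at an adjusted p of up to 0.07. Ctgf, which was not called, ran from -0.86 to 0.18 without 1 compared library, reversed without OE replicate 2, and the cause was not tested. With 1 read worth 0.172 to 0.186 CPM in the compared libraries, values under 1 CPM rested on at most 5 reads.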

Other observations

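Among other lists, complement and coagulation genes had a positive difference in 24 of 32 (median 0.37, no call by limma, 8 at an unadjusted p under 0.05). Over all genes 45.0% had a positive difference and 15.4% an unadjusted p under 0.05. C8b, a part of the membrane attack complex, had 504, 561 and 471 CPM in OE and 343, 265 and 175 CPM in KO (controls 282, 223 and 317 CPM; 1.02 ± 0.32, adjusted p = 0.107), and C2 stood at 0.61 ± 0.19, adjusted p = 0.107 (controls 58.3, 58.1 and 68.5 CPM, OE 67.9, 83.4 and 54.6 CPM and KO 43, 42.3 and 46.6 CPM). Fatty acid synthesis genes had a negative difference in 18 of 22 and a positive one in 4 (45.0% of all genes), at a median of -0.46. In this list 1 gene was called lower (1.35% of all genes) and none higher. Its called member Lpin1, a phosphatidate phosphatase of triglyceride synthesis, had 222, 151 and 747 CPM in OE, 871, 970.2 and 2680.5 CPM in KO and 2323, 1068 and 1096 CPM in controls (-2.16 ± 0.54, adjusted p = 0.0467, with the call lost without KO replicates 1, 2 or 3 or OE replicates 1 or 2 at an adjusted p of up to 0.21). Thrsp, a lipogenic nuclear protein, had 312, 202 and 270.1 CPM in OE and 1361, 1061 and 531 CPM in KO (controls 1349.9, 994 and 724 CPM), without overlap (-1.83 ± 0.56, adjusted p = 0.1). Of 18 clock genes 1 was called (1.88% of all genes), Rora, a nuclear receptor that activates Bmal1. Rora had 61.2, 48.1 and 46.5 CPM in OE, 100.6, 126 and 79.1 CPM in KO and 48.8, 49.8 and 54 CPM in controls (-0.94 ± 0.19, adjusted p = 0.0125, with the call lost without KO replicate 2 or OE replicates 2 or 3 at an adjusted p of up to 0.0769), where only KO lay apart.

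The interferon-stimulated gene Ifi27 was called higher at 69.2, 84.4 and 68.4 CPM in OE and 44.9, 43.2 and 37 CPM in KO (0.81 ± 0.19, adjusted p = 0.0329, with the call lost without any 1 of the 6 libraries and an adjusted p of up to 0.141), and the controls lay between at 61.8, 62.8 and 60.4 CPM. Tat, tyrosine aminotransferase of amino acid breakdown, had 1537, 1939 and 3023 CPM in OE and 3381, 4849 and 12769 CPM in KO (controls 3235, 2340.1 and 1887 CPM), with KO replicate 3 far above the rest (-1.51 ± 0.41, adjusted p = 0.0667). Mt1, a metallothionein, had 1737, 1168 and 3374 CPM in OE and 5335, 3548 and 10332 CPM in KO (controls 4471, 7203 and 4655 CPM; -1.61 ± 0.77, adjusted p = 0.326). The pericentral enzyme Cyp2c29 had 4037, 3686 and 3991 CPM in OE and 1531, 1126 and 1664 CPM in KO without overlap, and its controls split, replicate 1 at 1209 CPM with KO and replicates 2 and 3 at 3846 and 4269 CPM with OE (1.46 ± 0.51, adjusted p = 0.162). Proteasome and oxidative phosphorylation subunits had no call among 29 and 31 tested by limma and 0 at an unadjusted p under 0.05, and edgeR gave 0 and 0.

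In the RefSeq gene order, 24 pairs of called genes that follow each other had at most 4 tested genes between them. Of the 24, 18 ran in one direction, where 158 of all 220 called genes were lower. How many such pairs 220 genes spread at random would give was not worked out, so the counts do not show clustering. The pairs include Raet1e with Raet1d, Soat2 with Csad, and Apol7a, Apol9a and Apol9b in a row, the last 2 of which are close copies with uncertain values.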
